A study of Mus musculus with 32 samples.

Results

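The 9 genes described here, *Sftpa1*, *Sftpb*, *Sftpc*, *Sftpd*, *Abca3*, *Lamp3*, *Slc34a2*, *Etv5* and *Napsa*, are the genes by which alveolar type 2 (AT2) cells are known to make, store and release pulmonary surfactant. They were taken as a named list, by symbol, and all 9 were found among the 29511 genes of the count table and the 29434 symbols of the FPKM table (fragments scaled for transcript length and sequencing depth). AT2 cells are cuboidal cells of the lung alveolus that secrete surfactant, a film of phospholipid and protein that lowers surface tension and keeps the airspaces open. Surfactant lipid is packed with the hydrophobic proteins SP-B and SP-C into lamellar bodies, which are lysosome-related storage organelles, and SP-A and SP-D bind microbes in the airspace. AT2 cells also renew themselves and give rise to the flat alveolar type 1 (AT1) cells that cover most of the gas exchange surface.

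RNA was sequenced from whole lung tissue of young adult virgin female FVB/N mice, CLIC4-Knockout (KO) or Wildtype (WT), without a tumor (control, 4 KO and 4 WT lungs) or 14 days after injection of 6DT1 cells into the mammary fat pad (6 KO and 6 WT lungs), and from the 14-day primary tumors of 6 KO and 6 WT hosts. The KO is constitutive, with exon 2 of *Clic4* removed in every host cell, whereas 6DT1 cells, a line from a mammary tumor of an MMTV-Myc mouse, carry *Clic4* in both hosts. The comparisons ask whether lungs change with a distant tumor before metastases are visible, and whether they do so without host CLIC4. The paper states that the RNA of each genotype came from independent animals. The labels do not link lungs to tumors of the same host or to littermates. The p-values measure the spread between these samples, which may in part be technical.

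Depth was 4567220 to 8318711 counts assigned to genes per lung, with a median of 5578104.5, and 4446323 to 6518501 per tumor. *Clic4* was at 55.4 to 74.6 FPKM in the 10 KO lungs and 155 to 230 FPKM in the 10 WT lungs, so every lung matched its labelled genotype, and the KO values are above 0 because reads outside the removed exon are still counted. No pair of lungs of the same group agreed within sampling noise (42 pairs, chi-squared of 2.43 to 9.32 for each degree of freedom). For the 9 genes, 3 lungs stood apart from the rest of their groups. KO 14-day lung 1 was the lowest of its group for 8 of the 9 genes, WT control lung 2 was the lowest of its group for 8 of the 9, and KO control lung 1 was the highest of its group for all 9. *Rn7s1*, *Rn7s2* and *Rn7sk*, abundant noncoding RNAs, made up 11.2% of the counts of KO 14-day lung 1 and 11.8% of those of WT control lung 2, against 8.33 to 10.6% in the other 18 lungs. Whether that share has a part in the low values was not tested.

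The sequences in front of the start sites are shown first, because the members were measured as a group that shares a cell type, and the promoters let a reader see what their regulatory sequence does and does not share. The RefSeq table of promoters (GRCm38.p6) held 7 windows for 6 of the 9 genes. *Sftpb* and *Sftpa1* are printed from 250 bases before the start up to the start, in the direction of transcription, with capitals marking matches to the core of the NKX2-1 site (CTCAAG, a lung and thyroid homeodomain factor) and to a TATA-like motif (TATAAN). *Sftpb* lies on the plus strand at chr6:72304360-72304609 and *Sftpa1* on the plus strand at chr14:41131538-41131787.
Sftpb: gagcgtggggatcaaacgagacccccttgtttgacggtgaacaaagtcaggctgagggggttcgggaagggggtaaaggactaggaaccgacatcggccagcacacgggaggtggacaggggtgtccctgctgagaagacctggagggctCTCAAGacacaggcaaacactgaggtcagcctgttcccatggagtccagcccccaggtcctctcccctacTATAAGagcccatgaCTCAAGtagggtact
Sftpa1: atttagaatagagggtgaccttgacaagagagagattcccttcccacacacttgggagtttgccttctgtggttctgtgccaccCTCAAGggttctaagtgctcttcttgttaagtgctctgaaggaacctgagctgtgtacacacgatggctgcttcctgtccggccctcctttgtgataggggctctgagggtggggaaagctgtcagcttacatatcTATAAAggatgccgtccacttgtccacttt
The stretches around the matches to the forkhead motif of FOXA factors (TGTTTAC) in *Lamp3* (minus strand, chr16:19706436-19706472) and *Etv5* (minus strand, chr16:22439732-22439768) follow, with the match in capitals. In *Etv5* the match is on the other strand and reads GTAAACA.
Lamp3: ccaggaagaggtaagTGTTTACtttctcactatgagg
Etv5: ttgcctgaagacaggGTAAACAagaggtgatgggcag
The TATA-like match began 30 bases before the start in both *Sftpb* and *Sftpa1*. The NKX2-1 core began 100 and 15 bases before the start in *Sftpb* and 166 bases before it in *Sftpa1*. Over both strands of the 250 bases, CTCAAG was found in 2 of the 7 member windows and in 13.3% of the 32851 windows of all genes, TATAAN in 2 of 7 and in 22.7%, TGTTTAC in 2 of 7 and in 3.17%, the C/EBP motif TTGCNNAA in 1 of 7 (*Slc34a2*) and in 9.56%, and the ETS motif CCGGAAGT in 0 of 7 and in 2.88%. A match describes the letters in these windows and shows no binding, and no match of CCGGAAGT in them says nothing of ETS factors.

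The hydrophobic surfactant proteins were among the most abundant transcripts of these lungs. *Sftpc* (minus strand, chr14:70520949-70524081), which encodes the SP-C proprotein and is the classical marker of AT2 cells, was at 8579 ± 749 FPKM (SD, n = 20 lungs) and had rank 7 among all symbols by mean FPKM. Its counts made up 41.0% of the counts of the 9 genes. *Sftpb* (plus strand, chr6:72304610-72314371), which encodes the SP-B proprotein needed for lamellar bodies to form, was at 1131 ± 111 FPKM.

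The collectins, which bind sugars on microbes, were on either side of *Sftpb*. *Sftpa1* (plus strand, chr14:41131782-41136452), the gene of SP-A, was at 2071 ± 201 FPKM and *Sftpd* (minus strand, chr14:41172214-41185149), the gene of SP-D, at 417 ± 49.2 FPKM. The genes lie 35.8 kb apart on chromosome 14 with their 3′ ends facing each other, while *Sftpc* is 29.3 Mb further along the same chromosome.

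Of the genes of lamellar bodies and of the apical membrane, *Slc34a2* lay just above *Sftpd* in mean level per length, and *Napsa*, *Lamp3* and *Abca3* lay below all 4 surfactant proteins. *Slc34a2* (plus strand, chr5:53038081-53071664), a sodium-dependent phosphate transporter that takes phosphate back from the airspace, was at 495 ± 53.4 FPKM. *Napsa* (plus strand, chr7:44572380-44586862), an aspartic protease that cuts the SP-B proprotein, was at 132 ± 15.1 FPKM, *Lamp3* (minus strand, chr16:19653378-19706375), a membrane glycoprotein of lysosomes and lamellar bodies, at 127 ± 16.4 FPKM, and *Abca3* (plus strand, chr17:24351950-24410201), the transporter that loads phospholipid into lamellar bodies, at 89.5 ± 9.38 FPKM. *Etv5* (minus strand, chr16:22381309-22439719), an ETS transcription factor downstream of FGF signaling that maintains AT2 identity, was the lowest of the 9 at 43.2 ± 5.83 FPKM.

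In this order of levels per length, 5 of the 8 steps from a gene to the next separated all 20 values, and 3 did not. *Slc34a2* overlapped with *Sftpd* and was higher in 19 of 20 lungs. *Napsa* and *Lamp3* did not differ beyond their spread, with *Napsa* higher in 15 of 20 lungs. *Lamp3* was above *Abca3* in all 20 lungs although their ranges overlapped. Positions are of GRCm38 as in GENCODE M21, and FPKM, which the 3 noncoding RNAs named above share in, moves with their level in each library.

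**Figure D1:**
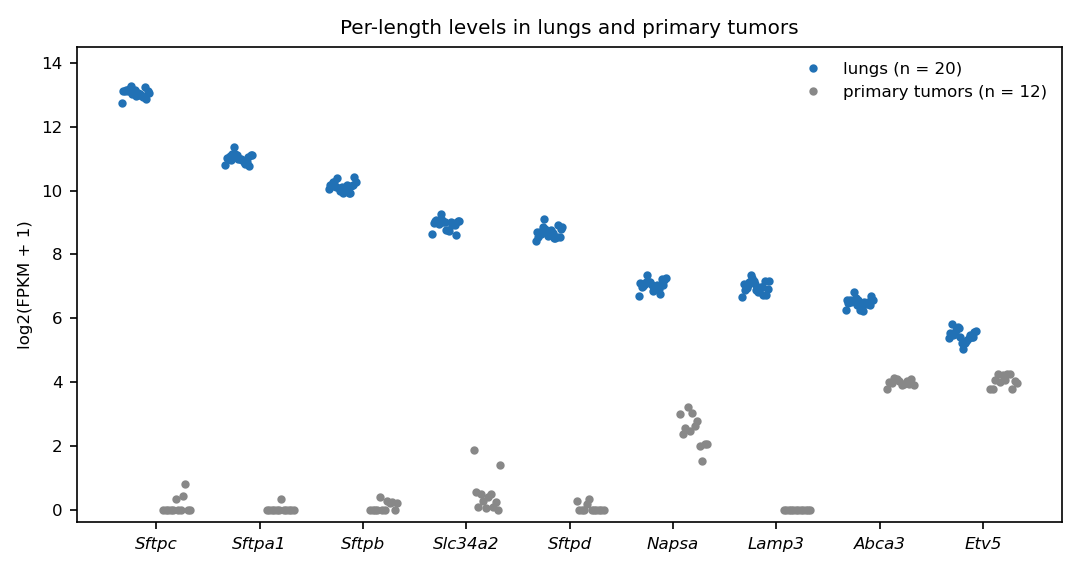
Points show log2(FPKM + 1) of each gene in the 20 lungs (blue) and the 12 primary tumors (grey), with genes ordered along the x axis by mean FPKM in lungs. *Sftpc* is highest at a mean of 8579 FPKM and *Etv5* lowest at 43.2 FPKM in lungs, whereas only *Napsa*, *Abca3* and *Etv5* have all their tumor points clearly above 0.

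The primary tumors show which of the 9 genes are particular to lung tissue in this series. The 9 genes together took 1.05 to 1.503% of the counts of a lung and 0.0129 to 0.0170% of those of a tumor. *Lamp3* had 0 counts in all 12 tumors and was at least 560-fold higher in the 14-day lungs, measured against a floor of 3 counts in each tumor library. *Sftpa1* had 1 count in 1 of 12 tumors, while *Sftpc* and *Sftpd* had 4 counts each and *Sftpb* 6 counts over the 12 tumors, with no more than 2 in any tumor. These transcripts of the airspace were therefore at or under the detection floor of 3 counts in every tumor.

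*Slc34a2* had 0 to 39 counts in the tumors with a median of 1.5, and its 2 highest tumors were KO tumor 1 with 39 counts and WT tumor 6 with 28 counts. *Napsa* was at 4.85 ± 1.94 FPKM in the 12 tumors, against 132 FPKM in lungs. *Abca3* was at 14.9 ± 1.10 FPKM in tumors, and *Etv5* at 15.6 ± 2.07 FPKM.

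All 9 genes passed the test for higher levels in 14-day lungs than in 14-day tumors (edgeR's quasi-likelihood test, Benjamini-Hochberg FDR of 0.05 and 2-fold), against 22.3% of the 16825 genes tested called higher. Of the 9, 6 had no more than 39 counts in any tumor and entered the test through the lungs alone, so for those 6 the call was set by the filter. For the 3 genes counted in every tumor, the log2 fold change was 4.63 ± 0.10 for *Napsa* (SE, FDR = 1.06e-28), 2.47 ± 0.05 for *Abca3* (FDR = 4.72e-30) and 1.35 ± 0.06 for *Etv5* (FDR = 1.50e-19), each with 12 lungs and 12 tumors. With at least 10 counts required in every sample, these 3 were the genes left to test.

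**Figure D2:**
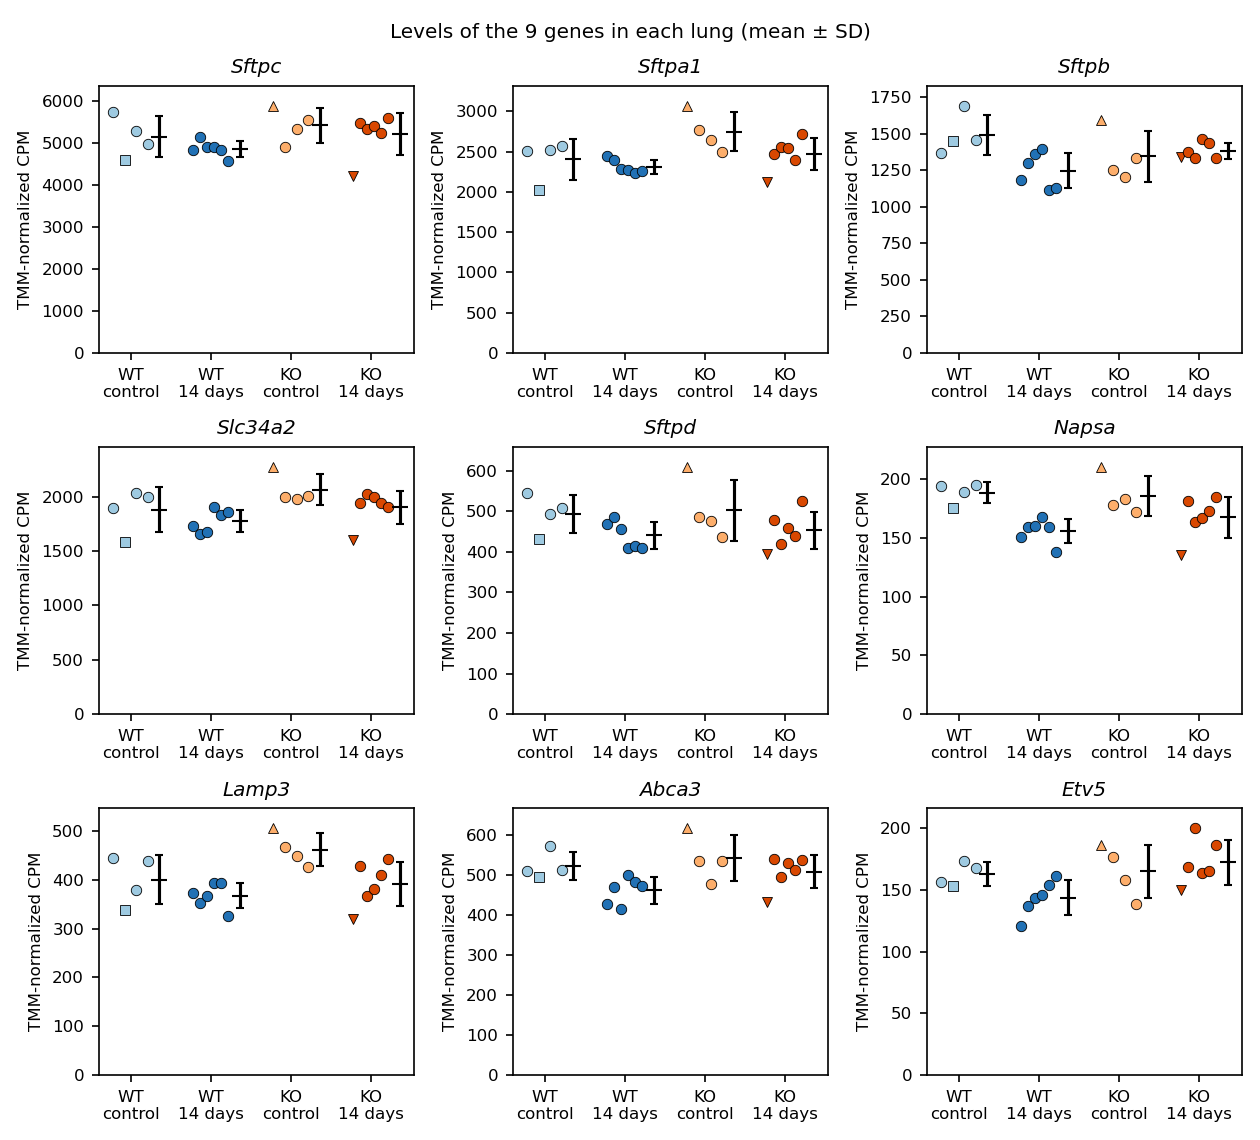
Each panel shows 1 gene, with TMM-normalized CPM (counts scaled to library size) on the y axis and the 4 lung groups on the x axis. Points are lungs, bars are the mean ± SD, and the triangle pointing up, the triangle pointing down and the square mark KO control lung 1, KO 14-day lung 1 and WT control lung 2. *Napsa* at 14 days in WT (138 to 168 CPM) is the only case in which a group lies wholly below its controls (176 to 195 CPM).

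In WT mice, the comparison of 14-day with control lungs asks what a distant tumor does to AT2 transcripts. All 9 genes had lower means at 14 days, by log2 changes of −0.05 (*Sftpa1*) to −0.28 (*Napsa*) with a median of −0.17, against a median of 0.003 over the 16029 genes tested. Levels between lungs are given as TMM-normalized CPM. In bulk tissue, fewer AT2 cells and less RNA per AT2 cell cannot be told apart.

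*Napsa* was at 195, 176, 189 and 195 CPM in the 4 WT control lungs and at 138 to 168 CPM, with a median of 159, in the 6 WT 14-day lungs. The groups did not overlap, and every 14-day lung was below every control, as it was for 1.35% of the genes tested. The log2 fold change was −0.28 ± 0.07 (SE, FDR = 0.165).

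*Sftpb* was at 1369, 1450, 1690 and 1454 CPM in the WT controls and at 1115 to 1395 CPM, with a median of 1240, at 14 days. Of the 6 tumor-bearing WT lungs, 5 lay below all controls and the highest lay just above the lowest control. The log2 fold change was −0.26 ± 0.08 (SE, FDR = 0.209).

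No member passed both limits that the study used for lungs (FDR of 0.25 and 1.5-fold), where edgeR called 0.574% of all genes. At the FDR alone, 2 of the 9 were called, *Napsa* and *Sftpb*, both lower, against 1.15% of all genes called lower. At an unadjusted p under 0.05 there were 3 of 9, with *Abca3* as the other (−0.18, FDR = 0.346), against 5.76% of genes in that direction. Without KO 14-day lung 1 and WT control lung 2, the lungs of highest Rn7 share, all 9 genes had an unadjusted p under 0.05, all lower by −0.13 (*Sftpa1*) to −0.31 (*Napsa*), against 4.56% of genes. In that fit *Napsa* alone stayed under the FDR of 0.25 (0.237), and *Sftpb* was at 0.354. Both lungs were the lowest of their groups for 8 of the 9 genes, and they were left out after seeing the data. KO control lung 1, the highest of its group, was kept. Counts of members without these 2 lungs, here and below, depend on that choice and add no support. Without WT control lung 2 alone 7 of 9 had an unadjusted p under 0.05 (4.56% of genes), and with any other lung left out 2 to 5 (4.66 to 7.31% of genes). DESeq2 called 2 at the FDR alone, against 2.86% called lower among the 9061 genes that its own filter left with an adjusted p. The remaining 6 genes were at −0.18 for *Etv5*, −0.17 for *Sftpd*, −0.12 for *Lamp3*, −0.08 for *Sftpc* and *Slc34a2* and −0.05 for *Sftpa1*, with FDRs of 0.434 to 0.799. These values moved with single control lungs. Without WT control lung 2 they were −0.23 for *Sftpd*, −0.20 for *Lamp3*, −0.15 for *Slc34a2*, −0.14 for *Sftpc* and −0.13 for *Sftpa1*. They were −0.07 for *Lamp3* and −0.03 for *Sftpc* without WT control lung 1, −0.04 for *Slc34a2* without WT control lung 3 and −0.02 for *Sftpa1* without WT control lung 4.

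The 2 calls at the FDR alone did not hold with every lung left out. With each of the 20 lungs left out in turn, *Napsa* stayed between −0.24 and −0.31 and its FDR between 0.111 and 0.329, with the call lost without any 1 of the 4 WT control lungs or WT 14-day lung 6. *Sftpb* stayed between −0.19 and −0.30, and its call was lost without any 1 of the 4 WT control lungs or of WT 14-day lungs 1, 5 and 6, with an FDR of up to 0.479 without WT control lung 3. With offsets for GC content the change in *Sftpb* was −0.14 (FDR = 0.455) and that in *Napsa* −0.22 (FDR = 0.339). The call of *Sftpb* was also lost with no filter (FDR = 0.254), in a fit of WT lungs only (FDR = 0.253) and with a block for the replicate number (FDR = 0.307). In 3 limma fits of FPKM both calls were lost, with FDRs of 0.384 to 0.437 for *Napsa* and 0.420 to 0.489 for *Sftpb*.

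In KO mice, 7 of the 9 genes had lower means at 14 days, with a median log2 change of −0.12 against 0.004 over all genes. No member passed both limits, where 0.262% of genes were called, and none passed the FDR alone in edgeR (1.05% of genes did) or DESeq2 (2.13% of genes with an adjusted p). At an unadjusted p under 0.05 there were 2 of 9, both lower, against 3.86% of genes. Without the 2 lungs of highest Rn7 share there were also 2 (3.93% of genes), and with single lungs left out 0 (without KO control lung 1) to 4 (without KO 14-day lung 6 or KO control lung 4). In those fits 3.09 to 4.5% of genes were lower at that p.

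These were *Lamp3* and *Sftpa1*. *Lamp3* was at 506, 466.3, 448 and 425 CPM in the KO controls and at 320 to 442 CPM, with a median of 395, at 14 days. Of the 6 tumor-bearing KO lungs, 4 lay below all controls, and the lowest of them was KO 14-day lung 1. The log2 fold change of *Lamp3* was −0.24 ± 0.09 (SE, FDR = 0.394).

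*Sftpa1* was at 3069, 2767, 2648 and 2501 CPM in the KO controls and at 2123 to 2714 CPM, with a median of 2513, at 14 days. The groups overlapped, with 3 of the 6 tumor-bearing lungs below all controls, and the log2 fold change was −0.15 ± 0.07 (SE, FDR = 0.556). *Sftpb* and *Etv5* were the 2 genes with means at or above those of controls, at 0.04 ± 0.08 and 0.06 ± 0.09. *Napsa*, called at the FDR alone in WT, was at −0.15 ± 0.07 in KO (FDR = 0.599). Without KO control lung 1 the KO change was −0.08 for *Napsa* and −0.09 for *Sftpa1*.

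**Figure D3:**
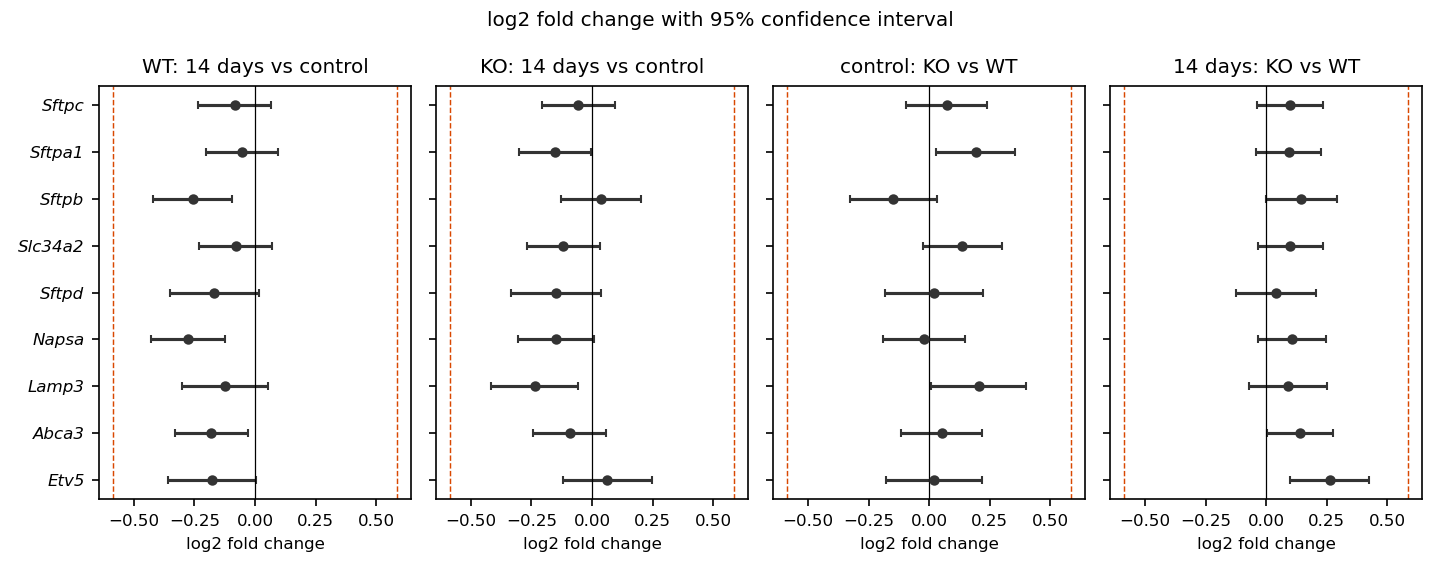
Points show the log2 fold change of each gene and bars its 95% confidence interval in 4 comparisons of lungs, with dashed lines at a 1.5-fold change in either direction. Every point lies within the dashed lines, from −0.28 (*Napsa*, 14 days against control in WT) to 0.26 (*Etv5*, KO against WT at 14 days), and the intervals of *Napsa*, *Sftpb* and *Abca3* in WT, of *Lamp3* and *Sftpa1* in KO, of *Lamp3* and *Sftpa1* between control lungs and of *Etv5* and *Abca3* between 14-day lungs leave out 0.

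Over both genotypes together, *Napsa* again had the smallest p, with a log2 change of −0.21 ± 0.05 at 14 days (SE, FDR = 0.0924). All 9 genes had lower means, with a median of −0.11 against 0.004 over all genes. No member passed both limits (0.574% of all genes did), and 2 passed the FDR alone, *Napsa* and *Lamp3*, both lower, against 2.31% of genes called lower. *Lamp3* changed by −0.18 ± 0.06 (FDR = 0.206). DESeq2 called 4 at the FDR alone, against 4.07% of its 8518 genes with an adjusted p called lower, with *Abca3* (FDR = 0.180) and *Sftpd* (FDR = 0.225) as the others, where edgeR gave −0.14 (FDR = 0.272) and −0.16 (FDR = 0.301). At an unadjusted p under 0.05, edgeR had the same 4 genes, against 5.65% of genes in that direction. There were 6 without the 2 lungs of highest Rn7 share (5.24% of genes), and 2 (without KO control lung 1) to 6 with single lungs left out (4.87 to 6.13% of genes).

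*Napsa* kept an FDR under 0.25 with each of the 20 lungs left out (0.0625 to 0.191). *Lamp3* did so in 10 of 20 cases. Its call was lost without KO 14-day lung 1, 3 or 4, KO control lung 1, 2 or 3, WT 14-day lung 2 or 6, or WT control lung 1 or 4, with an FDR of up to 0.380 without KO control lung 1. Without KO 14-day lung 1 and WT control lung 2, the changes were −0.20 for *Napsa* (FDR = 0.110) and −0.19 for *Lamp3* (FDR = 0.179). Other fits lost calls. *Napsa* was not called in 2 of the 3 limma fits of FPKM (FDRs of 0.252 and 0.287), and *Lamp3* was called neither in any of the 3 (FDRs of 0.416 to 0.492) nor in edgeR with no filter (FDR = 0.274). *Abca3* was called with the replicate block (FDR = 0.224) and with at least 10 counts in every sample (FDR = 0.240). Without WT control lung 2 the FDR came under the limit for *Sftpa1* (0.212), *Slc34a2* (0.241) and *Sftpd* (0.241), and also for *Sftpd* without KO 14-day lung 6 or KO control lung 4 and for *Abca3* without KO 14-day lung 6, KO control lung 3 or WT 14-day lung 5 (0.192 to 0.240 and 0.211 to 0.238). Without KO control lung 1 the changes were smaller, at −0.10 for *Sftpd* (FDR = 0.548) and *Abca3* (0.493), −0.08 for *Sftpa1* (0.644) and −0.07 for *Slc34a2* (0.665).

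Between genotypes at 14 days, all 9 genes had higher means in KO than in WT lungs, by 0.04 (*Sftpd*) to 0.26 (*Etv5*) with a median of 0.10, against 0.002 over all genes. These WT and KO lungs are the same ones that enter the comparisons with controls above. No member passed both limits (0.212% of genes did) or the FDR alone in edgeR (0.861% of genes), while DESeq2 called 1, *Etv5* (FDR = 0.127), against 0.875% of its 11771 genes with an adjusted p called higher. At an unadjusted p under 0.05 edgeR had 2 of 9, *Etv5* and *Abca3*, against 3.99% of genes higher at that p. Without the 2 lungs of highest Rn7 share 7 of 9 had such a p, all higher, against 4.37% of genes, as did 7 of 9 without KO 14-day lung 1 alone (4.58% of genes). With any other lung left out, 1 to 3 did (3.36 to 4.38% of genes). KO 14-day lung 1 was the lowest of its group for 8 of the 9 genes, so leaving it out raises the KO means of those genes.

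*Etv5* was at 121 to 162 CPM, with a median of 145, in the 6 WT lungs and at 150 to 200 CPM, with a median of 167, in the 6 KO lungs. Of the KO lungs, 5 lay above all WT lungs and KO 14-day lung 1 lay within the WT range. The log2 fold change was 0.26 ± 0.08 (SE, FDR = 0.290), and 0.30 (FDR = 0.185) without the 2 lungs of highest Rn7 share. With GC offsets it was 0.27 (FDR = 0.223). The FDR of *Etv5* was under 0.25 without KO 14-day lung 1 (0.164), KO control lung 1 (0.247) or 4 (0.217), or WT 14-day lung 6 (0.198). *Abca3* was at 0.14 ± 0.07 (FDR = 0.588).

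In control lungs, 7 of the 9 genes had higher means in KO than in WT, with a median of 0.05 against −0.004 over all genes. No member passed both limits, where 0.231% of genes were called, or the FDR alone in edgeR (0.973% of genes) or DESeq2 (5.55% of genes with an adjusted p). At an unadjusted p under 0.05 there were 2 of 9, both higher, against 5.34% of genes in that direction. No member was higher at that p without the 2 lungs of highest Rn7 share (4.32% of genes). The same held without KO control lung 1 alone (5.32% of genes) or WT control lung 2 alone (4.26%). Without KO control lung 1, *Sftpb* was lower in KO, at −0.24 (edgeR, unadjusted p = 0.0077, FDR = 0.268). *Lamp3* was at 445, 339, 378 and 439 CPM in the WT controls, so the KO controls given above overlapped with them, and the log2 fold change was 0.20 ± 0.09 (SE, FDR = 0.412), or 0.11 with GC offsets, under which no member had an unadjusted p under 0.05. *Sftpa1* was at 2507, 2018, 2518 and 2572 CPM in the WT controls, of which WT control lung 2 was far below the others, and the log2 fold change was 0.19 ± 0.08 (SE, FDR = 0.370), or 0.12 without WT control lung 2.

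Over both times together, 8 of the 9 genes had higher means in KO lungs, with a median of 0.10 against −0.003 over all genes. No member passed both limits (0.237% of genes did) or the FDR alone in edgeR (2.18% of genes), where 4 had an unadjusted p under 0.05 against 5.81% of genes in that direction. These were *Sftpa1* at 0.14 ± 0.05 (FDR = 0.291), *Lamp3* at 0.15 ± 0.06 (FDR = 0.361), *Slc34a2* at 0.12 ± 0.05 (FDR = 0.383) and *Etv5* at 0.14 ± 0.06 (FDR = 0.394). DESeq2 called these 4 at the FDR alone, with FDRs of 0.109, 0.196, 0.209 and 0.233, against 6.33% of its 4186 genes with an adjusted p called higher. In edgeR without KO 14-day lung 1, the FDR fell under the limit for *Sftpa1* (0.163), *Lamp3* (0.200) and *Slc34a2* (0.205), and without WT 14-day lung 5 for *Sftpa1* (0.249). An unadjusted p under 0.05 was held by 6 members without the 2 lungs of highest Rn7 share (5.36% of genes) and by 6 without KO 14-day lung 1 alone (6.66% of genes). It was held by 1 without KO control lung 1 (5.24% of genes) or without WT control lung 2 (4.78%). *Sftpb* was at −0.001 ± 0.056, with an interval of −0.12 to 0.11.

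The interaction of genotype and tumor asks whether the change at 14 days differs between KO and WT. No member passed the FDR of 0.25 in edgeR or DESeq2, where edgeR called 0.0499% of genes and DESeq2 3.87% of those with an adjusted p, and 1 of 9 had an unadjusted p under 0.05, against 8.53% of genes. It was *Sftpb*, at −0.26 in WT and 0.04 in KO, a difference of 0.29 ± 0.11 (SE, FDR = 0.477) with an interval of 0.06 to 0.53. Without KO control lung 1, which held the highest *Sftpb* of its group (1594 CPM, the other 3 being at 1202 to 1334), the difference in *Sftpb* passed the limit at 0.39 (FDR = 0.215). Without the 2 lungs of highest Rn7 share 3 of 9 had an unadjusted p under 0.05, *Sftpb*, *Etv5* and *Napsa*, against 7.02% of genes, with FDRs of 0.672 to 0.696. With offsets for GC content it was 0.09 (FDR = 0.956). *Etv5* had a difference of 0.24 ± 0.12 (FDR = 0.618), and the other 7 genes lay between −0.11 and 0.13.

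The coefficient of variation over the 20 lungs was 8.32% for *Sftpc* to 12.4% for *Lamp3*, while counting error at the lowest count was 0.730% for *Sftpc* to 4.07% for *Napsa*. Within groups the SD on the log2 scale was 0.12 to 0.15 for the 9 genes. Counting error does not include the error of library preparation.

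The 9 genes were also compared with each other from lung to lung. With each gene centered on its group means over the 20 lungs, all 36 pairs had a positive Pearson's r, from 0.106 to 0.874 with a median of 0.557. After Benjamini-Hochberg adjustment over the 36 pairs, 21 had a permutation p under 0.05 by Pearson and 13 by Spearman (100000 permutations, two-sided), and Spearman's rho was −0.0677 to 0.836. The share of pairs of other genes that would pass was not computed, so these counts do not show a trait particular to the 9 genes. The permutations ran over all 20 lungs without allowing for the group means removed, which makes these p somewhat too small. With the 2 lungs farthest from the median of the first gene of each pair left out, r was −0.188 to 0.822 with a median of 0.328, and 34 pairs were positive. The first gene is the one listed earlier at the start of this report, and lungs far out for the second gene alone stayed in. None of the 8 pairs with *Sftpb* passed by either measure.

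*Lamp3* and *Napsa*, both of lysosome-related organelles, were the closest pair, with r = 0.874 and rho = 0.836 (adjusted permutation p = 0.00018 and 0.00144) and r = 0.822 without the 2 farthest lungs. The neighboring collectin genes *Sftpa1* and *Sftpd* were next, with r = 0.838 and rho = 0.792 (adjusted permutation p = 0.00018 and 0.0018) and r = 0.821 without those lungs. *Sftpb* and *Etv5* stood off from the rest, with a median r with the other 8 genes of 0.312 and 0.340 against 0.527 to 0.696 for the remaining 7. The lowest r of any pair was theirs, 0.106. The points share library composition, and the values of a pair come from the same 20 libraries.

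**Figure D4:**
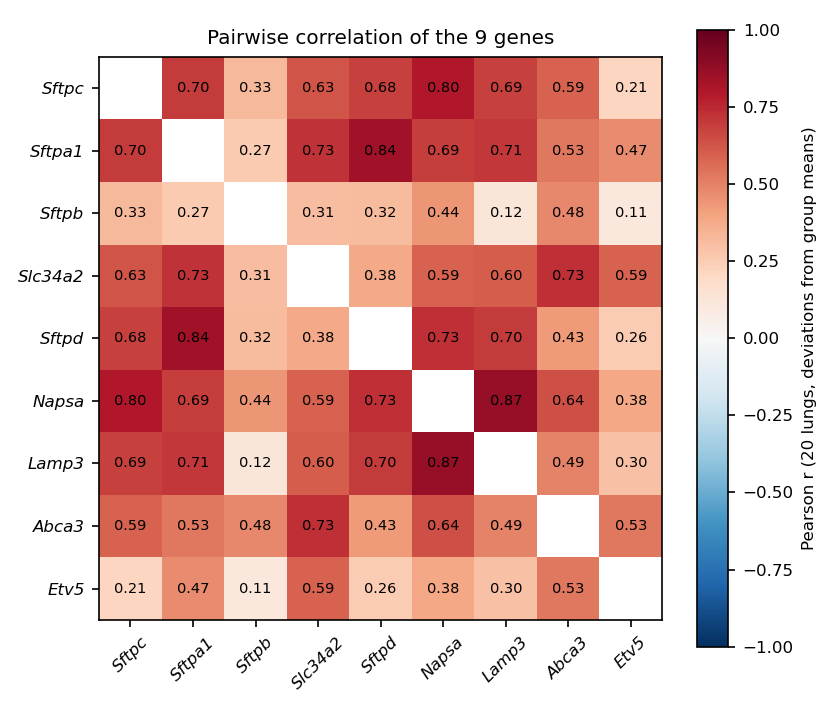
Cells show Pearson's r of each pair of genes over 20 lungs, each gene centered on its group means, on a scale from −1 (blue) to 1 (red). The cells of *Lamp3* with *Napsa* (0.874) and of *Sftpa1* with *Sftpd* (0.838) are the darkest, and the rows of *Sftpb* and *Etv5* the palest.

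The share of counts taken by the 9 genes followed the same lungs. It was 1.05 to 1.33% in KO 14-day lungs, 1.29 to 1.503% in KO controls, 1.15 to 1.22% in WT 14-day lungs and 1.09 to 1.34% in WT controls. KO 14-day lung 1 (1.05%) and WT control lung 2 (1.09%), the lungs with the most *Rn7s1*, *Rn7s2* and *Rn7sk*, were the lowest of their groups, and the other 18 lungs lay between 1.15 and 1.503%. Without these 2 lungs, no member passed the limits of the study in any comparison of lungs.

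**Figure D5:**
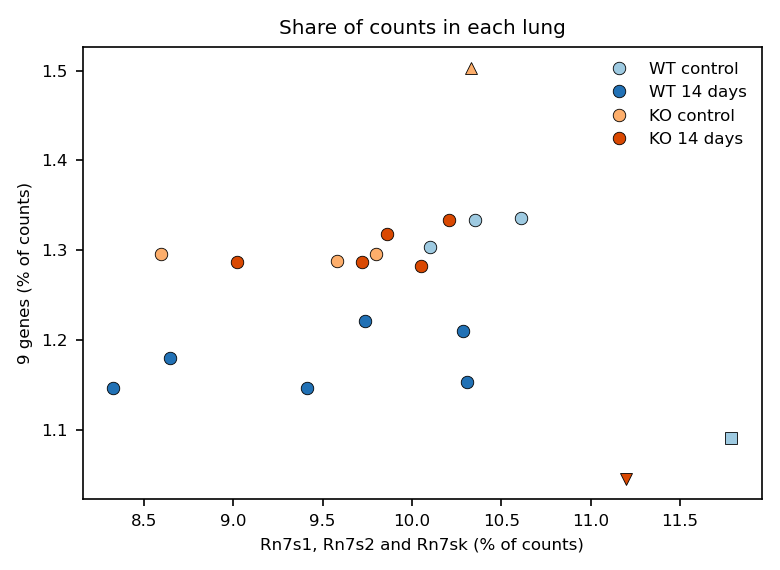
Each point is a lung, with the share of its counts in *Rn7s1*, *Rn7s2* and *Rn7sk* on the x axis and the share in the 9 genes on the y axis, both in percent. The downward triangle (KO 14-day lung 1, 1.05%) and the square (WT control lung 2, 1.09%) lie at the lower right, and the upward triangle (KO control lung 1, 1.503%) at the top.

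Genes whose pattern was most like that of the 9 were sought among 10878 genes of sufficient level, by Pearson's r with the mean of the members' centered values over the 20 lungs. The highest were *Elovl1* (0.842), an elongase of very long fatty acids, *Nubp2* (0.830), *Slc25a45* (0.811), *Sfta2* (0.811), a surfactant-associated secreted protein, *Psmc3* (0.799), *Fam57a* (0.794), *Eif1ad* (0.780), *Dram1* (0.773), *Tbc1d2* (0.772) and *Mlx* (0.767). Without the 2 lungs of highest Rn7 share the order changed, with r = 0.836 for *Nubp2*, 0.720 for *Tbc1d2*, 0.719 for *Elovl1*, 0.560 for *Sfta2* and 0.469 for *Dram1*, and 0.578 to 0.686 for the other 5. Of these 10, *Elovl1*, *Sfta2* and *Dram1* were on a list of other AT2 markers. *Sfta2* was at 56.6 FPKM in lungs and at 0 FPKM in tumors. The median r was 0.557 for the 19 other AT2 markers compared, 0.540 for 8 alveolar macrophage markers, 0.367 for 5 blood markers, 0.0898 for 15 AT1 markers and −0.000443 over all genes. Other lists of AT2 function lay near 0, with a median r of 0.0759 for surfactant lipid synthesis, 0.0923 for processing, recycling and clearance, −0.0527 for AT2 regulators and 0.0526 for AT2 injury states. The list of processing, recycling and clearance includes the member *Sftpd*.

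Other markers of AT2 cells were examined beside the members. At 14 days over both genotypes, 4 of 19 tested were lower at the FDR of 0.25 and none higher, with a median change of −0.11. Of all genes, 2.31% were lower and 2.48% higher at that FDR. The 4 lower were *Cxcl15* (−0.47 ± 0.14, FDR = 0.148), a lung chemokine, *Lyz1* (−0.25, FDR = 0.151), a lysozyme, *Elovl1* (−0.33, FDR = 0.176) and *Acoxl* (−0.38, FDR = 0.180). Within KO, 1 of 19 was called at 14 days and was higher, *Cd74* (0.31, FDR = 0.239), where 1.05% of all genes were called in either direction. Within WT none was. In control lungs 1 of 19 was called higher in KO than in WT, against 0.48% of all genes. Between genotypes over both times, *Hc* (0.35 ± 0.07, FDR = 0.0324), complement component C5, and *Ctsh* (0.15, FDR = 0.240), a cathepsin that cuts the SP-B proprotein, were higher in KO, where 1.1% of all genes were called higher and 1.09% lower. *Cd74*, the invariant chain of MHC class II, which macrophages and B cells also make, was higher in KO than in WT at 14 days (0.39 ± 0.08, FDR = 0.0669), as were 0.393% of all genes.

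Genes of surfactant lipid synthesis were examined next. At 14 days over both genotypes, 2 of 21 were lower, against 2.31% of all genes. They were *Acly* (−0.15, FDR = 0.181), which makes cytosolic acetyl-CoA, and *Lpin1* (−0.28, FDR = 0.223), a phosphatidate phosphatase. *Acaca*, the acetyl-CoA carboxylase that starts fatty acid synthesis, was higher in KO than in WT control lungs (0.36, FDR = 0.168) and lower at 14 days than in controls within KO (−0.28, FDR = 0.192), comparisons that share the 4 KO control lungs and called 0.48% of genes higher and 0.275% lower. *Elovl6*, an elongase of long fatty acids, was lower in KO than in WT at 14 days (−0.48, FDR = 0.238, against 0.468% of all genes called lower). *Acsl4* was higher in KO over both times (0.19, FDR = 0.185), against 1.1% of all genes called higher. Of 22 genes of surfactant processing, recycling and clearance, which include the member *Sftpd*, *Lyst*, which governs lysosome size, was the 1 called at 14 days over both genotypes and was higher (0.18, FDR = 0.141), against 2.48% of all genes. Over both times 1 of the 22 was called higher in KO, *Ctsh*, given above, against 1.1% of all genes.

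Among 21 regulators of AT2 cells, 3 were higher and 1 lower at 14 days over both genotypes, against the 2.48% and 2.31% of all genes given above. *Fgfr2*, the FGF receptor upstream of *Etv5*, was lower (−0.26 ± 0.05, FDR = 0.0251), while its ligand *Fgf7* (0.28, FDR = 0.203), *Foxa1* (0.32, FDR = 0.237) and *Etv1* (0.22, FDR = 0.245) were higher. In WT alone, *Fgfr2* was lower at 14 days (−0.34, FDR = 0.0935), against 1.15% of all genes called lower there. Among 10 genes of AT2 injury and transitional states, *Lcn2* (−0.47, FDR = 0.187), a siderophore-binding protein, and *Itgb6* (−0.34, FDR = 0.200), an integrin subunit, were lower at 14 days and none higher. No regulator passed the FDR between genotypes in edgeR.

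Markers of other cells of the lung were examined in the same way. At 14 days over both genotypes, where 2.48% of all genes were called higher and 2.31% lower, all 9 neutrophil markers tested were higher, with a median of 1.29, and their summed level was 107 to 369 CPM in WT 14-day lungs against 63.7 to 99.8 CPM in WT controls, and 45.8 to 422 CPM in KO 14-day lungs against 63.9 to 115 CPM in KO controls. Of 15 AT1 markers, 3 were lower, *Gprc5a* (−0.20, FDR = 0.107), *Krt7* (−0.14, FDR = 0.213) and *Cldn18* (−0.09, FDR = 0.223), and of 12 alveolar macrophage markers 1, the scavenger receptor *Marco* (−0.91, FDR = 0.0343). Of 9 fibroblast markers, *Wnt2*, *Npnt* and *Col3a1* were lower (−0.32, −0.19 and −0.39, FDRs of 0.213, 0.219 and 0.226), and of 10 ciliated cell markers *Tppp3* (−0.17, FDR = 0.207). Club cell, endothelial, cardiac muscle and blood markers had no call in that comparison. The part of these cells in the lower AT2 values was not tested.

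Between genotypes at 14 days, 5 of 8 cardiac muscle markers were lower in KO, led by *Myh6* (−0.66 ± 0.10, FDR = 0.00310), with summed levels of 539 to 674 CPM in KO and 694 to 1091 CPM in WT lungs, where 0.468% of all genes were called lower. Of 12 alveolar macrophage markers, 2 were higher in KO at 14 days, *Marco* (0.86, FDR = 0.234) and *Car4* (0.20, FDR = 0.218), against 0.393% of all genes, while *Ear1*, *Cidec*, *Fabp1* and *Siglecf* were at −0.23 to −0.12 and not called. Over both times 3 of 12 were higher, *Chil3* (0.69, FDR = 0.0301), *Car4* (0.15, FDR = 0.187) and *Mrc1* (0.22, FDR = 0.240), against 1.1% of all genes. The summed alveolar macrophage level was 582 to 974 CPM in KO 14-day and 762 to 994 CPM in KO control lungs, against 537 to 728 CPM in WT 14-day and 484 to 728 CPM in WT control lungs. Of 9 fibroblast markers 1, the collagen gene *Col1a1*, was higher in KO at 14 days (0.65, FDR = 0.205). Over both times, where 1.1% of all genes were called higher and 1.09% lower, 1 of 15 AT1 markers, *Pdpn* (−0.30, FDR just under the limit), and 2 of 10 endothelial markers, *Tie1* (−0.22, FDR = 0.187) and *Plvap* (−0.28, FDR = 0.188) were lower in KO, and 1 of 10 club cell markers, *Scgb3a2* (0.18, FDR just under the limit), and 1 of 10 ciliated cell markers, *Dnah5* (0.21, FDR = 0.102) higher. Of 8 cardiac muscle markers, 5 were lower in KO over both times as well, with a median of −0.34 over the 8. The part of these cells in the genotype values of the 9 genes was not tested.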

How the data were processed

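The authors aligned stranded mRNA reads to GRCm38 with STAR and deposited RSEM expected counts per gene as whole numbers, without normalization, and FPKM values, RSEM's values corrected for the length of a gene's transcripts and for depth. The annotation is not given in the sources used here. From the counts, edgeR 4.0.16 (R 4.3.3) was run with TMM normalization, filterByExpr and the quasi-likelihood test in 1 fit of the 20 lungs with 1 mean per group (16029 genes) and, for lungs against tumors, 1 fit of all 32 samples (16825 genes). P-values were adjusted by Benjamini-Hochberg over all genes tested. Lung calls took the limits of the study, an FDR of 0.25 and 1.5-fold (the FDR alone for the interaction). The SE is the log2 fold change divided by the square root of F. Levels between genes are FPKM and between samples TMM-normalized CPM. Likeness used log2 CPM with a prior count of 2 and genes with a mean of at least 3 on that scale. The named genes are all 9 members, at most 4 called genes of each list in each comparison, and the 10 genes most alike. The members and the lists were chosen with earlier results of these data known, and no p for a list was computed. Alternatives were DESeq2 1.42.0, RLE size factors, library sizes without Rn7 genes and members, a fit without the filter, a stricter filter of at least 10 counts in each of the samples, a block for the replicate number, fits of the compared groups only, other limits, GC offsets (loess, span of 0.5, GC content known for 98.94% of genes), limma 3.58.1 on log2(FPKM + 1) and log2(FPKM + 0.1), each lung left out, and, chosen after seeing the data, leaving out the 2 lungs of highest Rn7 share. The tools were tested on simulated data. Depth of 4446323 to 8318711 counts per sample sets a counting error of at most 4.07% for a member in a lung. Correlations, promoters and figures used Python 3.11.15, numpy 2.4.6, pandas 2.3.3, scipy 1.17.1 and matplotlib 3.10.9.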

Additional observations from a re-analysis of the deposited data

Results flagged for a closer look

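Each lung group was examined for a lung far from the others, with the gap to its nearest neighbor set against the range of the group, for the 9 genes and their share of counts, and each tumor group for the genes with at least 10 counts in a tumor of that group. Of the 40 lung groups 7 held such a sample, where chance gives about 1 in 20, and all 7 came from 3 lungs. KO 14-day lung 1 was low for *Sftpc* (4215 CPM, the next at 5249), for *Slc34a2* (1605 CPM, the next at 1911) and for the share of the 9 genes (1.05%, the next at 1.28%). WT control lung 2 was low for *Sftpa1* (2018 CPM, the next at 2507) and for the share (1.09%, the next at 1.304%). KO control lung 1 was high for *Slc34a2* (2277 CPM, the next at 2012) and for the share (1.503%, the next at 1.296%). Among tumors, *Slc34a2* was high in KO tumor 1 (2.62 FPKM, the next at 0.46) and in WT tumor 6 (1.64 FPKM, the next at 0.39). In both tumor groups *Slc34a2* was examined only because of that 1 tumor, the only one over 10 counts, so these 2 cases are not set against chance. The values of a gene and of the share come from the same libraries and are not independent.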

How the results depend on the processing

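Of 2643 values recomputed under alternatives for 97 results, 2473 kept their direction and their side of the limits, 56 turned, and 114 crossed a limit or moved a count by over 1.5 times. Of those 114, 105 were counts over all genes, 4 counts of members and 5 values of single members. At the limits of the study, the counts of called members in lungs stayed at 0 under the normalizations, filters, GC offsets, limma and the added omission of 2 lungs, except 2 in WT and 2 over both genotypes at an FDR of 0.25 with no fold limit, and 0 to 1 in the interaction with each lung left out. Against tumors, 9 members became 3 with at least 10 counts in every sample, by construction since each of the others had fewer than 10 counts in some tumor.

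Calls at the FDR alone changed more often, as given beside each comparison. Directions turned in 19 values with no single lung left out, most of them near 0. The larger ones were *Sftpb* between control lungs (−0.149) and the interaction of *Lamp3* (−0.114) and *Sftpa1* (−0.0990). *Sftpb* in KO against WT over both times (−0.00132) was 8.80e-05 with RLE size factors, 0.00144 without Rn7 genes and members in library sizes, 0.000461 with at least 10 counts in every sample, 0.000177 in DESeq2, 0.000859 with the replicate block, 0.0755 with GC offsets and 0.0207 in the 3 limma fits. With GC offsets, *Sftpb* was −0.0493 in KO at 14 days and 0.0308 between control lungs, *Napsa* 0.0473 between control lungs, and the interaction −0.0599 for *Sftpc* and −0.00398 for *Sftpd*. Without the 2 lungs of highest Rn7 share, *Sftpd* was −0.0327 and *Etv5* −0.00188 between control lungs, and the interaction 0.0121 for *Sftpa1*, 0.00611 for *Lamp3* and 0.0772 for *Slc34a2*. The cause was not tested.

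With each lung left out, 37 values turned. In KO at 14 days against control, *Etv5* ranged from −0.0106 to 0.130 and *Sftpb* from −0.0126 to 0.130. Between control lungs, *Abca3* ranged from −0.0180 to 0.103, *Etv5* from −0.0445 to 0.0960, *Napsa* from −0.0882 to 0.0124 and *Sftpd* from −0.0854 to 0.0845. In KO against WT, *Sftpd* ranged from −0.00675 to 0.0805 at 14 days and from −0.0209 to 0.0640 over both times, where *Sftpb* ranged from −0.0460 to 0.0286. In the interaction, *Sftpc* ranged from −0.0231 to 0.0823, *Sftpd* from −0.0409 to 0.129 and *Slc34a2* from −0.0735 to 0.0323.

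The replicate number did not link lungs of different groups. This check used lungs only, so it cannot say whether a lung and a tumor with the same number share a host. Lungs with the same number had a median correlation of −0.0202 in their deviations (−0.212 to 0.232), others 0.00309, and 2 of 20 lungs correlated best with their own number. With the replicate block, 0 members were called in each lung comparison at the limits of the study and 9 against tumors, as without it. At the FDR alone the block lost *Sftpb* in WT (0.307) and added *Abca3* over both genotypes (0.224), and changed no other call. Depth sets a counting error of at most 4.07% for a member in a lung, and in tumors it leaves 5 of the 9 genes under the floor of 3 counts.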
